A study of Homo sapiens with 24 samples.

Results

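Expression of 10 genes of the NRF2 and glutathione antioxidant system was followed in LNCaP cells, an androgen-dependent human prostate adenocarcinoma line, exposed to the androgen receptor antagonist enzalutamide, to the androgen dihydrotestosterone (DHT), or to silencing of the transcription factor GATA2. The 10 genes were listed by name and function, with earlier results of these data known, from 22227 genes in the ligand tables and 23028 in the siRNA tables, and every one of them passed the filters on low values in both experiments. In the ligand experiment, cells were given vehicle, 10 µM enzalutamide for 4 or 24 h, or 10 nM DHT for 4 or 24 h, with 2 libraries per group. No time is stated for the vehicle group, which served both times. Effects of ligand and of hours in culture therefore cannot be told apart in comparisons with it. The paper gives charcoal-stripped serum for its quantitative RT-PCR and ChIP assays and names no serum for RNA-seq. In the siRNA experiment, cells transfected with a non-targeting pool (siControl) or a GATA2 pool (siGATA2) received, for 24 h, either vehicle or enzalutamide at 25 µM, with 3 libraries per group. The doses of enzalutamide differed between the experiments, so their values are set side by side and not tested against each other. All libraries were polyA RNA from 1 cell line, without added androgen in the vehicle and enzalutamide groups, and silencing used 1 siRNA pool per target, so an effect of the GATA2 pool on other transcripts cannot be told apart from an effect of GATA2 loss.

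NRF2, encoded by NFE2L2, is a basic leucine zipper transcription factor that is held at a low protein level by KEAP1, which presents it to a CUL3 ubiquitin ligase. Oxidants and electrophiles modify KEAP1, NRF2 then accumulates, pairs with a small MAF protein and binds antioxidant response elements upstream of genes for glutathione synthesis, thioredoxin recycling, quinone reduction and heme breakdown. This control acts mostly on the NRF2 protein, which was not measured here. Glutathione is built from cysteine, glutamate and glycine, spent by peroxidases and transferases, and recycled by glutathione reductase.

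The short element that NRF2 and small MAF proteins bind is the sequence this gene group is known for, and its matches close to the annotated starts are shown for that reason. RefSeq promoter windows (GRCh38.p14, 250 bases before to 50 after each annotated start) were found for 8 of the 10 genes, in 12 windows, and not for HMOX1 and GSR. The letters TGACNNNGC, searched on both strands, matched in windows of GCLM and TXNRD1, and in 13.3% of all 35116 windows. Each stretch below is 30 bases on the strand of its gene, with the match in capitals. The GCLM stretch lies at chr1:93909446-93909475 on the minus strand, with the match from 34 to 26 bases before the start and in reverse orientation. The first TXNRD1 stretch lies at chr12:104215669-104215698 on the plus strand, with the match from 99 to 91 bases before 1 of 2 annotated starts and in forward orientation. The second lies at chr12:104286919-104286948, with a reverse match from 102 to 94 bases before the other start.
GCLM: ctacgatttctGCTTAGTCAttgtcttcca
TXNRD1, first start: tacacgggctaTGACTTCGCtgttgtcacc
TXNRD1, second start: agtggatttctGCTTTGTCAttctgactct
A further reverse match in the first TXNRD1 window spans the start itself and is not shown. No window of the other genes held these letters, which says nothing of elements farther away. A motif of GATA factors, spelled AGATAA, matched 1 of the genes, GCLC, and 10.3% of all windows. TGATGNAA, an amino acid response element, matched none of them and 3.62% of all windows, and the palindromic androgen response element matched none of them and 0.00285% of all windows.

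Estimated counts summed to between 38894849 and 59985231 per library in the ligand experiment, while the siRNA files hold RPKM (read density per transcript length and mapped depth), whose low values put the deepest library at 1.31 times the shallowest in relative reads. GATA2 itself was at 46.6 to 64.7 RPKM in the siGATA2 libraries and at 77.0 to 132 RPKM in the siControl libraries, without overlap, so the silencing was partial at the RNA level. Its mean was 82.3 RPKM under vehicle and 129 RPKM under enzalutamide in siControl cells, and 51.4 and 62.1 RPKM in siGATA2 cells. The gap in GATA2 RNA was thus wider under enzalutamide, and its part in the responses compared below was not tested. All 10 luminal prostate markers were detected, and 12 of 15 markers of leukocytes, fibroblasts, endothelium, smooth muscle and basal epithelium stayed below 1 RPKM in every library. The exceptions were COL1A1 at 9.62 to 16.3 RPKM, CD68 at 3.54 to 12.2 RPKM and VWF at 0.362 to 1.25 RPKM, and their part in the results was not tested. In these bulk libraries, a change in the number of cells and a change in RNA per cell cannot be told apart.

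In siControl cells under vehicle, the 10 genes ran from moderate to very high expression on the RPKM scale, which corrects for length and so allows genes to be compared. NQO1 was highest at 188 ± 4.92 RPKM (mean ± SD, n = 3 for each of these values). GPX4 followed at 169 ± 7.43 RPKM and TXNRD1 at 165 ± 4.57 RPKM, and the ranges of these 2 overlapped. GSR stood at 79.1 ± 1.17, SRXN1 at 48.1 ± 0.892 and NFE2L2 at 19.8 ± 0.479 RPKM. The subunits of the glutathione-building ligase were close to each other, GCLM at 11.9 ± 0.522 and GCLC at 10.6 ± 0.509 RPKM. HMOX1, at 10.4 ± 1.11 RPKM, overlapped GCLC, and OSGIN1 was lowest at 4.05 ± 0.254 RPKM. NQO1 was above 99.2% of the 20369 tested genes and OSGIN1 above 55.1%.

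The first question was how these genes responded to the antagonist and to the androgen. After 24 h of 10 µM enzalutamide, 5 of the 10 genes were higher and 1 was lower, against 16.4% of the 15555 tested genes higher and 17.0% lower. The higher ones were HMOX1, NQO1, GCLM, GCLC and OSGIN1, and the lower one was GSR. The median log2 fold change of the 10 genes was 0.18, against 0.01 over all tested genes. After 4 h, none of the 10 genes was called by edgeR's quasi-likelihood test or by DESeq2, where 6.94% of tested genes were higher and 6.68% lower, and 3 of them had an unadjusted p below 0.05. Throughout, a gene is called when its Benjamini-Hochberg adjusted p is below 0.05 over all genes tested, and ligand levels are CPM, counts scaled to a common library size.

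**Figure D1:**
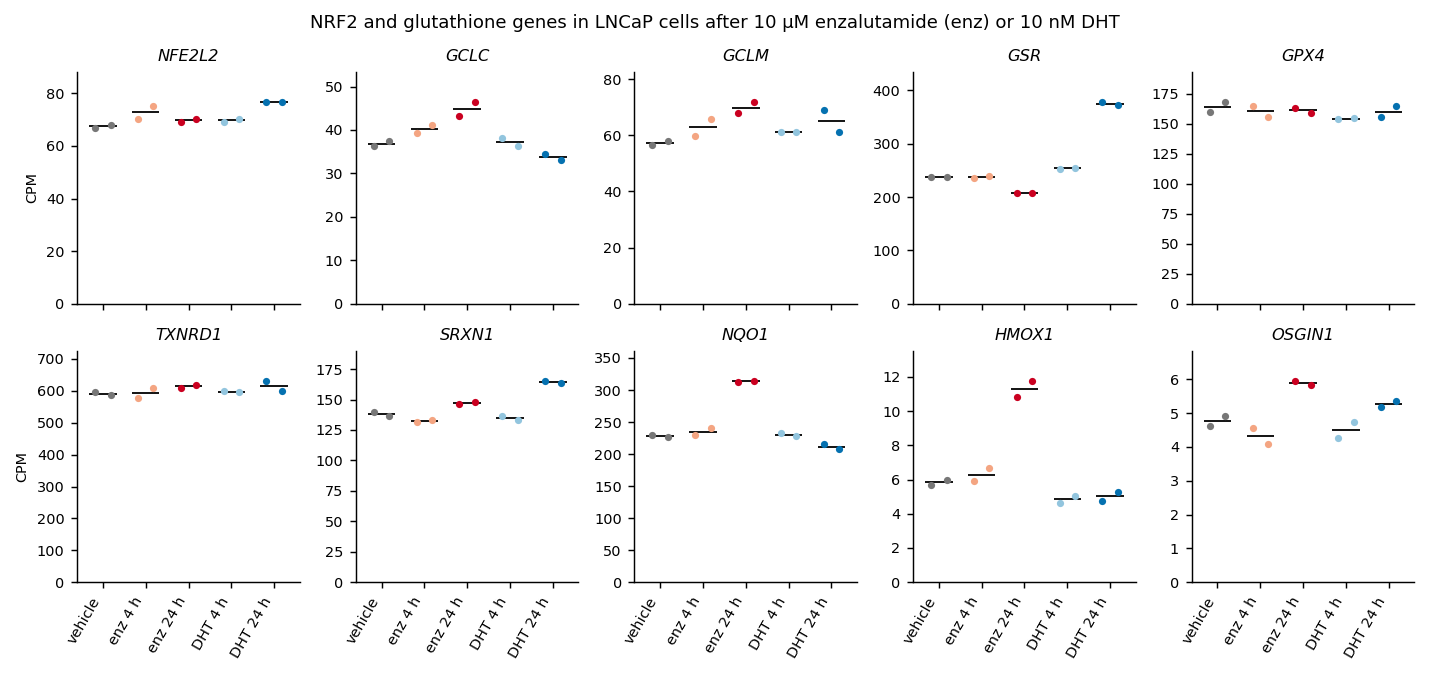
Level of each of the 10 genes (CPM, linear axis from 0) in every library of the ligand experiment, for vehicle, 10 µM enzalutamide (enz) and 10 nM DHT at 4 and 24 h; points are libraries (2 per group) and bars are group means. HMOX1 and NQO1 stand highest after 24 h of enzalutamide, and GSR and SRXN1 after 24 h of DHT.

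HMOX1, the inducible heme oxygenase that opens the heme ring and releases iron and carbon monoxide, had the largest change of the 10. It was at 5.70 and 5.97 CPM in vehicle, 5.90 and 6.69 CPM after 4 h of enzalutamide and 10.8 and 11.8 CPM after 24 h. The 24 h libraries stood clear of all others, whereas those at 4 h overlapped vehicle. The log2 fold change at 24 h was 0.96 ± 0.10 (SE; adjusted p = 5.46e-06), a 1.94-fold rise. At 4 h it was 0.12 ± 0.10 (adjusted p = 0.509).

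NQO1, a reductase that takes quinones straight to hydroquinones, was at 229 and 227 CPM in vehicle, 230 and 240.3 CPM at 4 h and 313 and 314 CPM at 24 h of enzalutamide. Both 24 h libraries were far above the rest, and the rise had a log2 fold change of 0.46 ± 0.03 (adjusted p = 3.56e-07). OSGIN1, an oxidative stress-induced growth inhibitor and the least abundant gene, was at 4.62 and 4.90 CPM in vehicle and 5.95 and 5.83 CPM at 24 h. The OSGIN1 groups did not overlap, with a log2 fold change of 0.31 ± 0.10 (adjusted p = 0.0354). With DESeq2 this call was lost (adjusted p = 0.187), as it was without either vehicle library (adjusted p = 0.181 and 0.0675) or without either 24 h enzalutamide library (adjusted p = 0.154 and 0.12). It was also lost with the prefix of the column name, read here as a sequencing set, as a term (adjusted p = 0.257).

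Glutamate-cysteine ligase makes the first and rate-limiting bond of glutathione, with GCLC as the catalytic and GCLM as the modifier subunit, and both transcripts were higher at 24 h. GCLC was at 36.2 and 37.5 CPM in vehicle, 39.3 and 41.1 CPM at 4 h and 43.2 and 46.4 CPM at 24 h. GCLM was at 56.6 and 57.9 CPM in vehicle, 59.8 and 65.8 CPM at 4 h and 67.9 and 71.8 CPM at 24 h. For each subunit the 3 groups did not overlap and were ordered vehicle, 4 h, 24 h. At 24 h the log2 fold change was 0.28 ± 0.05 for GCLC (adjusted p = 0.00104) and 0.29 ± 0.06 for GCLM (adjusted p = 0.00249).

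GSR, the NADPH-dependent reductase that regenerates glutathione from its disulfide, moved in the other direction. Its level was 237 and 238 CPM in vehicle, 237 and 239 CPM at 4 h and 207 CPM in both libraries at 24 h. The 24 h libraries lay below all the others, and the log2 fold change was -0.20 ± 0.03 (adjusted p = 0.000243).

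The 4 remaining genes were not called at either time of enzalutamide. NFE2L2 was at 66.8 and 68.2 CPM in vehicle and 69.3 and 70.1 CPM at 24 h, a log2 fold change of 0.05 ± 0.04 (adjusted p = 0.434). TXNRD1, the cytosolic thioredoxin reductase, had a log2 fold change of 0.06 ± 0.03 at 24 h (adjusted p = 0.229). SRXN1, which restores over-oxidised peroxiredoxins, had 0.09 ± 0.03 (adjusted p = 0.064). GPX4, the selenoenzyme that reduces lipid peroxides in membranes and guards against ferroptosis, had -0.02 ± 0.04 (adjusted p = 0.723). None of these 4 changes at 24 h reached 0.1 on the log2 scale. At 4 h NFE2L2 was at 70.3 and 75.2 CPM, above both vehicle libraries. Its log2 fold change there was 0.11 ± 0.04 (adjusted p = 0.112 by edgeR).

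Comparing 24 h directly with 4 h of enzalutamide, HMOX1, OSGIN1, NQO1, GCLC and SRXN1 were higher at 24 h and GSR was lower, against 11.7% of tested genes higher and 12.9% lower. Every 24 h library carries 1 column prefix and every 4 h library another, and vehicle columns carry both. The prefix is read here as a sequencing set, which the labels do not state. With no vehicle of a stated time, exposure and hours in culture cannot be told apart in this contrast. With the set as a term, 3 genes stayed called, with HMOX1, NQO1 and GSR keeping their direction. The other 3, GCLC, SRXN1 and OSGIN1, had adjusted p of 0.233, 0.124 and 0.182 in that fit. GCLC, at an adjusted p of 0.0429 without that term, was also not called in 9 of 10 fits that left out 1 library, OSGIN1 in 2 of them and SRXN1 in 1.

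DHT gave another pattern. At 4 h none of the 10 genes was called by edgeR or by DESeq2, with 4.66% of tested genes higher and 2.11% lower, and 2 of the 10 had an unadjusted p below 0.05. At 24 h NFE2L2, GCLM, SRXN1 and GSR were higher and NQO1 was lower, 4 and 1 of 10, against 26.9% of tested genes higher and 23.2% lower. The enzalutamide and DHT comparisons share the vehicle libraries. Of the genes called in both at 24 h, GSR and NQO1 had opposite signs and GCLM the same sign. HMOX1 and GCLC also had opposite signs at 24 h, without a call under DHT.

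GSR was at 253 and 255 CPM after 4 h of DHT and 378 and 373 CPM after 24 h, against 237 and 238 CPM in vehicle. Its 24 h level was far above every other group, with a log2 fold change of 0.66 ± 0.03 (adjusted p = 1.77e-09). SRXN1 was at 165 and 163 CPM after 24 h of DHT and 140 and 137 CPM in vehicle (log2 fold change 0.25 ± 0.03, adjusted p = 4.09e-05). NFE2L2 was at 76.6 CPM in both 24 h libraries, above its 66.8 and 68.2 CPM in vehicle, with a log2 fold change of 0.18 ± 0.04 (adjusted p = 0.00281).

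The changes of GCLM and NQO1 under DHT were small. GCLM was at 68.9 and 61.2 CPM after 24 h, both above vehicle but apart from each other (log2 fold change 0.19 ± 0.06, adjusted p = 0.0193), and the call was lost without the first 24 h library, at an adjusted p of 0.275. NQO1 was at 215 and 207 CPM, just below vehicle (-0.11 ± 0.04 on the log2 scale, adjusted p = 0.0184), and its adjusted p was 0.127 without the second 24 h library. Both calls were also lost without vehicle replicate 1, which left 3 of the 10 genes called (adjusted p = 0.103 for GCLM and 0.0847 for NQO1). NQO1 was not called without vehicle replicate 2 either (adjusted p = 0.0534). HMOX1 at 4.76 and 5.30 CPM and GCLC at 34.4 and 33.1 CPM lay below their vehicle libraries without being called, at adjusted p of 0.103 and 0.0716.

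In the siRNA experiment the question was whether the response to enzalutamide depended on GATA2, a pioneer factor that opens chromatin for the androgen receptor. In siControl cells, 25 µM enzalutamide for 24 h raised 8 of the 10 genes and lowered 1, against 17.7% of the 20369 tested genes higher and 24.4% lower. Their median log2 fold change was 0.36, and that of all tested genes was -0.02. The 5 genes raised by 10 µM in the ligand experiment were all among the 8 raised here. The experiments share no control libraries. With 8 of the 10 raised here, this overlap is no separate result, and the overlap over all genes was not computed. Fold changes in this experiment are on the log2(RPKM + 0.1) scale, tested with limma.

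**Figure D2:**
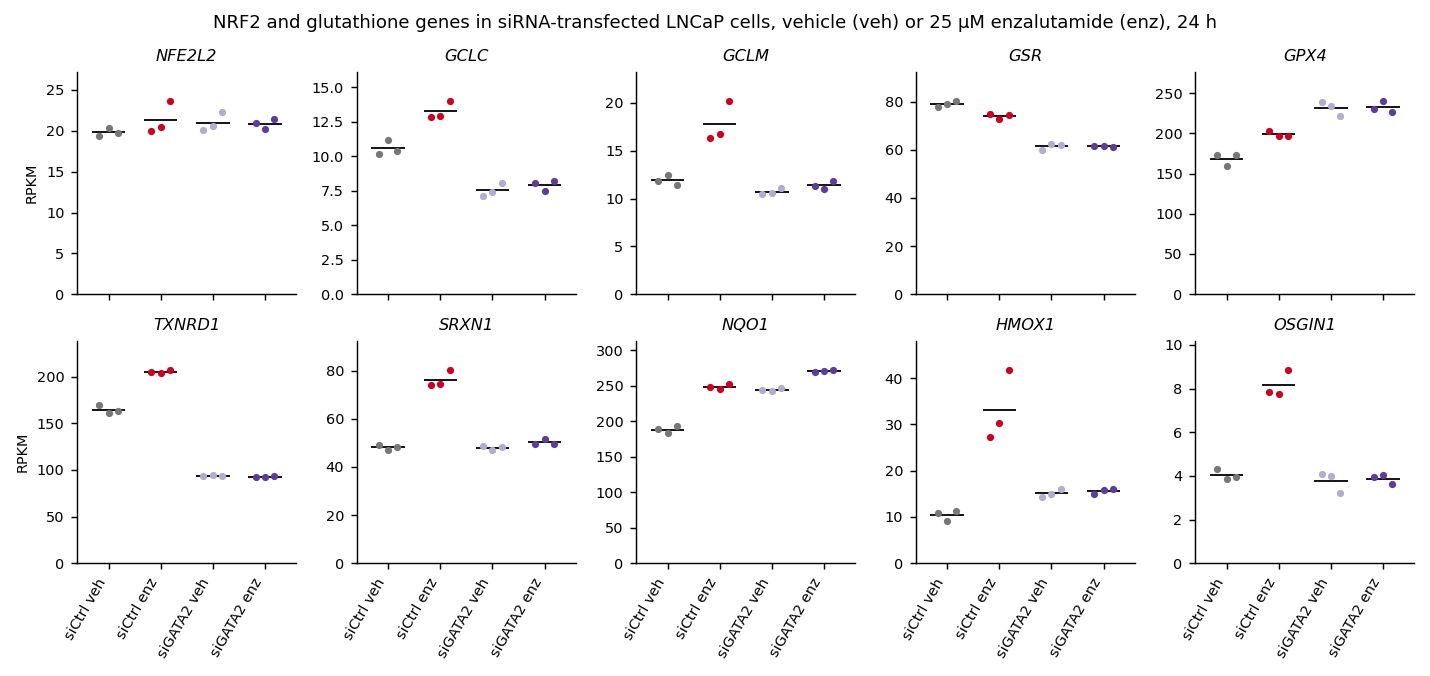
Level of each of the 10 genes (RPKM, linear axis from 0) in every library of the siRNA experiment, for siControl (siCtrl) and siGATA2 cells under vehicle (veh) or 25 µM enzalutamide (enz); points are libraries (3 per group) and bars are group means. HMOX1, SRXN1, OSGIN1 and GCLM rise under enzalutamide in siControl cells, while their siGATA2 groups lie close together.

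HMOX1 was again the gene with the largest change. It was at 10.9, 9.15 and 11.2 RPKM under vehicle and 27.3, 30.4 and 41.7 RPKM under enzalutamide. The 2 groups were far apart and the third enzalutamide library stood above the other two. The log2 fold change was 1.64 ± 0.13 (adjusted p = 5.55e-06), or 3.12-fold, and ranged from 1.46 to 1.77 when single libraries were left out.

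OSGIN1 and SRXN1 came next. OSGIN1 went from 4.34, 3.86 and 3.94 RPKM to 7.86, 7.73 and 8.85 RPKM, a log2 fold change of 0.99 ± 0.09 (adjusted p = 1.34e-05). SRXN1 went from 49.0, 47.2 and 48.2 RPKM to 74.0, 74.4 and 80.2 RPKM, with 0.66 ± 0.03 on the log2 scale (adjusted p = 1.59e-07). In neither gene did the groups overlap, and the difference was larger than the spread within either group.

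The ligase subunits both rose. GCLM was at 11.8, 12.4 and 11.4 RPKM under vehicle and 16.3, 16.7 and 20.2 RPKM under enzalutamide (log2 fold change 0.57 ± 0.07, adjusted p = 0.000111). GCLC was at 10.2, 11.2 and 10.4 RPKM and then at 12.8, 12.9 and 14.0 RPKM (0.32 ± 0.06, adjusted p = 0.00116). The third enzalutamide library was the highest for both subunits, as it was for HMOX1, OSGIN1, SRXN1, NQO1, TXNRD1 and NFE2L2, and without it 9 of the 10 genes were still called.

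Among the abundant enzymes the rises were smaller and the replicates tight. NQO1 was at 189, 183 and 193 RPKM under vehicle and 248, 246 and 253 RPKM under enzalutamide (log2 fold change 0.40 ± 0.03, adjusted p = 1.26e-06). TXNRD1 was at 170, 161 and 164 RPKM and then at 205, 204 and 207 RPKM (0.32 ± 0.02, adjusted p = 2.54e-06). GPX4 was at 173, 160 and 173 RPKM and then at 204, 197 and 197 RPKM (0.24 ± 0.04, adjusted p = 0.000765). None of these 3 pairs of groups overlapped.

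GSR and NFE2L2 did not take part in the rise. GSR was at 77.9, 79.0 and 80.2 RPKM under vehicle and 74.9, 73.0 and 74.4 RPKM under enzalutamide, lower without overlap by -0.09 ± 0.02 on the log2 scale (adjusted p = 0.00558). Centring each library on its median left this call out, at an adjusted p of 0.163. NFE2L2 was at 19.4, 20.3 and 19.8 RPKM and then at 20.0, 20.5 and 23.7 RPKM, overlapping groups with a log2 fold change of 0.10 ± 0.06 (adjusted p = 0.2).

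Under vehicle, GATA2 silencing left 3 of the 10 genes higher, 3 lower and 4 not called, against 24.2% of tested genes higher and 31.4% lower. These counts are near the shares of all genes and are no result particular to the 10. TXNRD1 had the largest change, from the siControl values above to 93.5, 94.6 and 93.0 RPKM, a log2 fold change of -0.81 ± 0.02 (adjusted p = 9.99e-10). The mean TXNRD1 level in siGATA2 cells was 0.569 of that in siControl cells. GCLC fell to 7.16, 7.38 and 8.10 RPKM (-0.48 ± 0.06, adjusted p = 3.47e-05) and GSR to 59.8, 62.5 and 61.9 RPKM (-0.36 ± 0.02, adjusted p = 1.66e-07), also without overlap.

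The genes that rose on silencing were HMOX1, GPX4 and NQO1. HMOX1 was at 14.4, 15.1 and 16.0 RPKM in siGATA2 cells (log2 fold change 0.54 ± 0.13, adjusted p = 0.00535). GPX4 was at 239, 234 and 222 RPKM (0.46 ± 0.04, adjusted p = 3.46e-06). NQO1 was at 245, 242 and 247 RPKM (0.38 ± 0.03, adjusted p = 5.65e-07). In each, every siGATA2 library was above every siControl library under vehicle. NFE2L2, GCLM, SRXN1 and OSGIN1 were not called, with log2 fold changes of 0.08, -0.15, -0.01 and -0.11 and adjusted p of 0.298, 0.109, 0.881 and 0.341. For GCLM this rested on 1 library of another group, through the shared estimate of spread: without siControl enzalutamide replicate 3 its adjusted p was 0.012.

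Under enzalutamide, the siGATA2 libraries were lower than the siControl ones for 7 of the 10 genes and higher for 2, against 28.1% of tested genes lower and 26.3% higher. The median log2 fold change of the 10 was -0.62, and that of all tested genes was near 0. TXNRD1 had -1.15 ± 0.02 (adjusted p = 1.22e-10), HMOX1 -1.06 ± 0.13 (adjusted p = 5.45e-05) and OSGIN1 -1.05 ± 0.09 (adjusted p = 3.11e-06). GCLC, GCLM, SRXN1 and GSR had log2 fold changes from -0.74 to -0.27. GPX4 and NQO1 were higher in siGATA2 cells by 0.22 ± 0.04 and 0.12 ± 0.03 on the log2 scale, with adjusted p of 0.000779 and 0.00208. NFE2L2 was not called, at -0.03 ± 0.06 (adjusted p = 0.705).

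In siGATA2 cells themselves, enzalutamide left the levels of most of these genes close to vehicle. HMOX1 was at 15.0, 15.9 and 16.0 RPKM under enzalutamide, overlapping its vehicle libraries (log2 fold change 0.05 ± 0.13, adjusted p = 0.955). OSGIN1 was at 3.95, 4.05 and 3.61 RPKM (0.05 ± 0.09, adjusted p = 0.913). SRXN1 was at 49.7, 51.4 and 49.6 RPKM, just above all vehicle libraries (0.07 ± 0.03, adjusted p = 0.486). The remaining genes except NQO1 had log2 fold changes from -0.02 to 0.09, with TXNRD1 at 92.1, 92.5 and 93.0 RPKM the lowest and GCLM at 11.3, 10.9 and 11.9 RPKM the highest of them.

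NQO1 was the single gene called in siGATA2 cells, where 0.221% of tested genes were higher and 0.191% lower. It was at 269.9, 271 and 272 RPKM under enzalutamide and 245, 242 and 247 RPKM under vehicle, groups that did not overlap. The log2 fold change of 0.15 ± 0.03 had an adjusted p of 0.0494, at the threshold. The call was lost with the replicate number as a block (adjusted p = 0.091), with no filter on low values (adjusted p = 0.0514) and in 11 of 12 fits that left out 1 library.

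The difference between the responses was tested directly, as the interaction of siRNA and enzalutamide. For 8 of the 10 genes the log2 fold change under enzalutamide was smaller in siGATA2 than in siControl cells, and for GSR it was larger, against 10.8% of tested genes smaller and 15.0% larger. This comparison uses the same libraries as the 4 pairwise ones, so it is not a separate observation. In siGATA2 cells enzalutamide left 0.221% of all tested genes called higher and 0.191% lower. Genes raised in siControl cells therefore tend to a negative interaction, and the count is no result particular to these 10. The difference was -1.60 ± 0.19 for HMOX1 (adjusted p = 0.000225), -0.94 ± 0.13 for OSGIN1 (adjusted p = 0.000557) and -0.59 ± 0.05 for SRXN1 (adjusted p = 1.43e-05). GCLM followed with -0.48 ± 0.10 (adjusted p = 0.00606), and TXNRD1, GCLC, NQO1 and GPX4 lay between -0.34 and -0.24. The interaction of NFE2L2 was -0.11 ± 0.09 (adjusted p = 0.398).

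The 3 weakest of these differences were close to the threshold or small. GCLC had an adjusted p of 0.0458, which rose above 0.05 in 9 of 12 fits that left out 1 library. GSR had a difference of 0.10 ± 0.03 (adjusted p = 0.0407), not called in 8 of those 12 fits nor with the replicate block (adjusted p = 0.0722). GPX4 had -0.24 ± 0.06 (adjusted p = 0.0129) and was called in all 12.

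**Figure D3:**
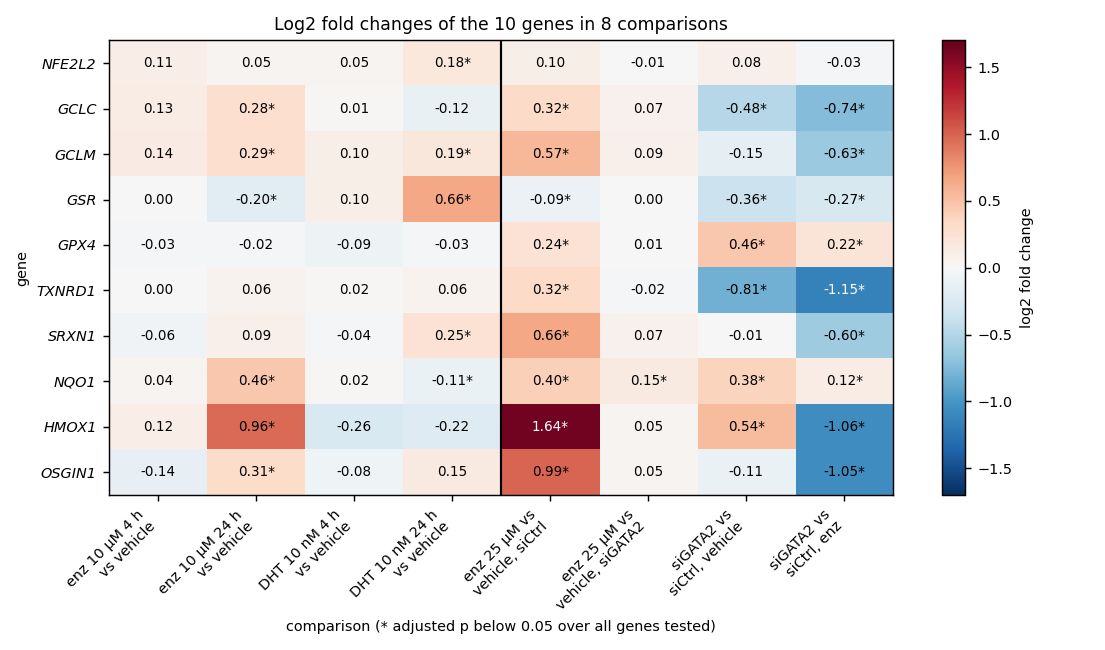
Log2 fold changes of the 10 genes (rows) in 8 comparisons (columns; ligand experiment left of the line, siRNA experiment right of it), on a colour scale from blue for lower to red for higher, with a star where the adjusted p was below 0.05 over all genes tested. The column for enzalutamide in siGATA2 cells is near 0 for all genes, and HMOX1 under 25 µM enzalutamide in siControl cells has the highest value, 1.64.

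The wider system was described with lists of related genes that leave out the 10 and were chosen with earlier results of these data known. The list of other known NRF2 targets is not complete, so its counts do not cover every target. PRDX1, a known target that was lower under enzalutamide in siControl cells, was placed with the peroxidases. Of 30 other known NRF2 targets, 29 were tested in the ligand experiment, where 17 were higher and 2 lower after 24 h of 10 µM enzalutamide, against 16.4% of all tested genes higher and 17.0% lower (median log2 fold change 0.24, against 0.01). After 4 h 1 was higher and 1 lower, against 6.94% and 6.68%. In siControl cells under 25 µM enzalutamide 24 of 30 were higher and 3 lower, against 17.7% and 24.4% of all tested genes (median 0.43, against -0.02). All 17 targets raised by 10 µM were among the 24. With 24 of 30 raised, this overlap is no separate result either. In siGATA2 cells under enzalutamide none was called by limma (median 0.01), and 8 had an unadjusted p below 0.05. With 0.221% of all tested genes higher and 0.191% lower in that comparison, a count of 0 in 30 says nothing particular to these targets. The interaction was negative and called for 22 of the 30 and positive and called for 1, against 10.8% and 15.0% of all tested genes. As few of all tested genes were called in siGATA2 cells, targets raised in siControl cells tend to a negative interaction. This count is therefore no result particular to these targets.

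FTH1, the heavy chain of the iron store ferritin, led this list with a log2 fold change of 1.51 ± 0.07 in siControl cells (adjusted p = 1.1e-07), from 570 ± 14.2 to 1630 ± 140.1 RPKM (SD, n = 3). In siGATA2 cells its change was 0.04 ± 0.07 (adjusted p = 0.898). IDH1, which makes cytosolic NADPH from isocitrate, rose from 95.6 ± 0.188 to 204 ± 7.17 RPKM in siControl cells, 1.09 ± 0.03 on the log2 scale (adjusted p = 1.01e-08). TRIM16 rose by 0.73 ± 0.04. The 3 that fell were SLC6A6, the taurine transporter, CBR1 and FOCAD, with log2 fold changes of -0.27, -0.17 and -0.15. AKR1C1, AKR1C2 and AKR1C3 are near-identical genes whose reads can be split between them, so their separate values are uncertain.

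**Figure D4:**
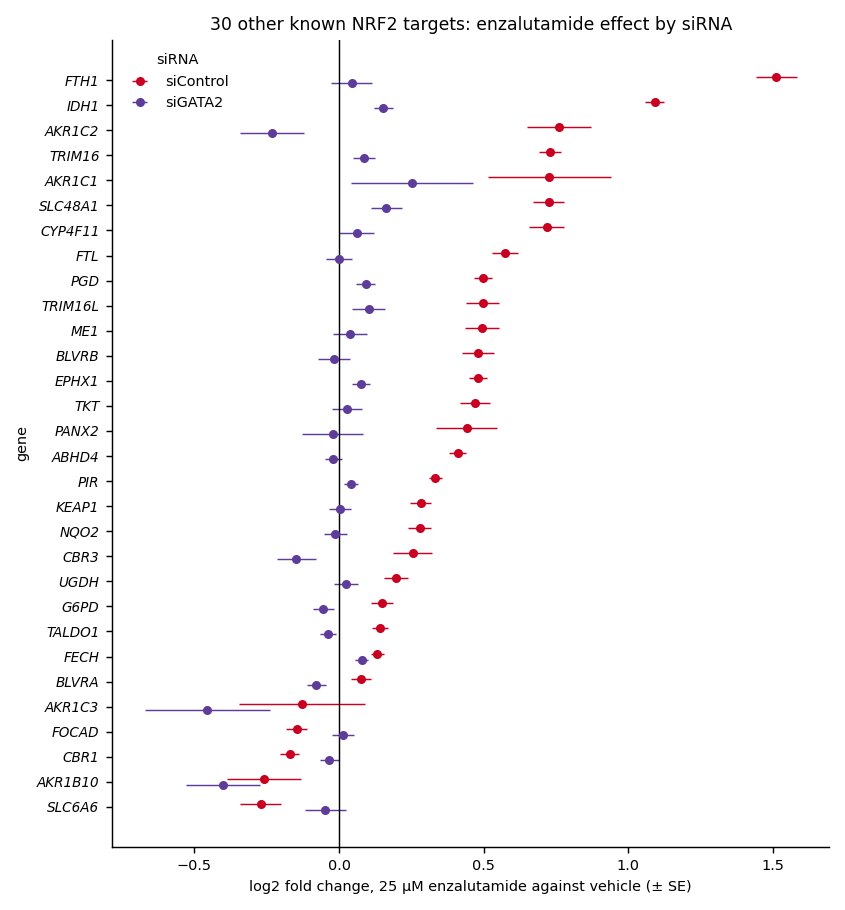
Log2 fold change of 25 µM enzalutamide against vehicle (± SE from limma) for 30 other known NRF2 targets, in siControl cells (red) and siGATA2 cells (purple), sorted by the siControl value. In siControl cells 24 genes were called higher, up to 1.51 for FTH1, and in siGATA2 cells none was called.

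After 24 h of DHT, 10 of 29 of these targets were higher and 8 lower, against 26.9% and 23.2% of all tested genes. IDH1 was at 0.72 ± 0.03 and PANX2 at -0.44 ± 0.08, the highest and lowest called values among those with an average log2 CPM of at least 1. IDH1 was higher under both DHT and enzalutamide in the ligand experiment, whereas FTL, the ferritin light chain, was lower under DHT at -0.29 ± 0.04. Silencing of GATA2 under vehicle raised 8 of 30 and lowered 14, against 24.2% and 31.4% of all tested genes, among them EPHX1, a microsomal epoxide hydrolase, at 0.66 ± 0.03, and ABHD4 at -0.81 ± 0.03 and FTL at -0.70 ± 0.04. Under enzalutamide 20 of 30 were lower in siGATA2 cells and 4 higher, against 28.1% and 26.3% of all tested genes, with IDH1 at -1.29 ± 0.03, FTL at -1.27 ± 0.04 and ABHD4 at -1.24 ± 0.03.

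The regulators of NRF2 moved in part. Of 14 regulators and partners, 8 rose and 2 fell in siControl cells under enzalutamide, against 17.7% and 24.4% of all tested genes. KEAP1 is both on this list and on that of other known NRF2 targets, so the lists are not fully separate. MAFF, a small MAF partner, rose by 0.92 ± 0.12 on the log2 scale (adjusted p = 0.000156). SQSTM1, the autophagy receptor p62 that sequesters KEAP1, rose by 0.89 ± 0.04 (adjusted p = 7.65e-08), and NFE2L1, a related factor, by 0.61 ± 0.03 (adjusted p = 4.73e-07). RBX1, a ring subunit of the CUL3 ligase, was lower by -0.24 ± 0.04 and TRIM21 by -0.30 ± 0.04. In the ligand experiment 13 of the 14 were tested. At 4 h of 10 µM enzalutamide MAFG, BACH1, a repressor at the same elements, and SQSTM1 were higher by 0.24, 0.24 and 0.20 and MAFK was lower by -0.39, within totals of 4 higher and 1 lower, against 6.94% and 6.68% of all tested genes. At 24 h 5 were higher and 1 lower, against 16.4% and 17.0%, with SQSTM1 at 0.46 ± 0.04.

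MAFF and SQSTM1 were also raised by GATA2 silencing under vehicle, at 1.33 ± 0.12 and 0.73 ± 0.04, and CUL3 at 0.45 ± 0.05, while NFE2L3 was lower at -1.21 ± 0.06. In that comparison 6 of the 14 were higher and 5 lower, against 24.2% and 31.4% of all tested genes. DHT for 24 h lowered SQSTM1 by -0.48 ± 0.04 and raised MAFK by 0.30 ± 0.06, with 2 higher and 4 lower of 13, against 26.9% and 23.2% of all tested genes. The interaction of siRNA and enzalutamide was negative and called for 7 of the 14, including MAFF, SQSTM1 and NFE2L1 at -0.98, -0.81 and -0.58, and positive and called for 2, against 10.8% and 15.0% of all tested genes. As for the targets, this count is not separate from the rises in siControl cells.

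Genes that supply, degrade or use glutathione were divided. Of 32, 10 rose and 9 fell in siControl cells under enzalutamide, against 17.7% and 24.4% of all tested genes, and the median of -0.03 was close to that of all tested genes. Those that rose most were CHAC1, a cytosolic enzyme that breaks glutathione down, and SLC7A11 and SLC3A2, the light and heavy chains of the cystine importer that feeds glutathione synthesis. CHAC1 went from 4.97 ± 0.200 to 37.1 ± 3.73 RPKM (log2 fold change 2.87 ± 0.17, adjusted p = 6.22e-07), SLC7A11 from 15.4 ± 1.19 to 36.6 ± 2.96 RPKM (1.24 ± 0.07) and SLC3A2 by 1.05 ± 0.03. CHAC2, a constitutive relative of CHAC1, fell by 1.26 on the log2 scale, and the glutaredoxins GLRX2 and GLRX3 fell by 0.75 and 0.44. The same transporter genes and CHAC1 were already raised after 4 h of 10 µM enzalutamide, at 1.47 ± 0.08 for CHAC1, 1.29 ± 0.10 for SLC7A11 and 0.52 ± 0.04 for SLC3A2, when none of the 10 genes was called. They were the 3 of 28 tested that were higher at 4 h, and none was lower, by edgeR, where 6.94% of all tested genes were higher and 6.68% lower and 4 of the 28 had an unadjusted p below 0.05.

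Under enzalutamide these 3 were far lower in siGATA2 than in siControl cells, CHAC1 by -4.29 ± 0.17, SLC7A11 by -2.09 ± 0.07 and SLC3A2 by -1.52 ± 0.03, within totals of 11 higher and 10 lower of 32, against 26.3% and 28.1% of all tested genes. All 3 were already lower on silencing under vehicle, at -1.78 ± 0.17, -1.18 ± 0.07 and -0.52 ± 0.03, and the rest of each gap is the interaction, -2.51 ± 0.24 for CHAC1, -0.92 ± 0.09 for SLC7A11 and -0.99 ± 0.05 for SLC3A2. DHT for 24 h raised 10 and lowered 8 of 28, against 26.9% and 23.2% of all tested genes, among them ABCC4, an exporter of conjugates and cyclic nucleotides, at 1.87 ± 0.04, GLRX2 at 1.43 ± 0.09 and CHAC1 at -0.68 ± 0.09.

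Peroxidases, thioredoxins, catalase and superoxide dismutases gave 7 higher and 8 lower of 25 tested in siControl cells under enzalutamide, against 17.7% and 24.4% of all tested genes, and 5 higher and 8 lower of 24 after 24 h of 10 µM, against 16.4% and 17.0%. SESN2, a stress-induced sestrin, was at 0.93 ± 0.04 and 0.77 ± 0.05 in these comparisons, and PRDX1, an abundant cytosolic peroxiredoxin and known NRF2 target, at -0.22 ± 0.04 and -0.20 ± 0.04. Of 15 ferroptosis regulators beside GPX4, 2 rose and 5 fell in siControl cells, against 17.7% and 24.4% of all tested genes, with ACSL4, which loads polyunsaturated fatty acids into phospholipids, at 0.65 ± 0.09 and TFRC, the transferrin receptor, at -0.43 ± 0.06. The interaction was called for 4 higher and 1 lower of these 15, against 15.0% and 10.8% of all tested genes, a count that is not separate from the siControl response. None of the genes in the glutathione, peroxidase and ferroptosis lists was called for enzalutamide in siGATA2 cells by limma, with 2, 6 and 1 at an unadjusted p below 0.05. The same held for the NRF2 regulators, with 2 at an unadjusted p below 0.05. As 0.221% of all tested genes were higher and 0.191% lower there, these zeros are no result about the lists.

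HMOX1 had the longest vector of fold changes over 7 comparisons, the 4 ligand comparisons with vehicle, enzalutamide in both siRNA backgrounds and silencing under vehicle. Among 11384 genes tested in both experiments at sufficient level, the 3 closest to it by Euclidean distance on the log2 scale were FTH1 at 0.508, DDIT4 at 0.750 and FTH1P3 at 0.754. FTH1P3 is a pseudogene that shares sequence with FTH1, so its reads are not separate evidence. DDIT4, a stress-induced inhibitor of mTORC1, differed from HMOX1 in being raised at 4 h of enzalutamide, at 0.75 against 0.12. All 3 were like HMOX1 near 0 for enzalutamide in siGATA2 cells, between 0.04 and 0.16. That value was among the 7 that picked them, and few of all tested genes were called there. This likeness is therefore no separate result.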

How the data were processed

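PolyA RNA from LNCaP cells was sequenced as directional libraries. Per the submitters' processing notes, the authors aligned reads to hg19 with TopHat2 2.0 and quantified them in Partek. The deposited ligand tables hold estimated counts per gene, which need not be whole, and were rounded. The deposited siRNA tables hold RPKM although they are named as counts, so no count test was run on them. The ligand vehicle table has 4 columns, 3 of which carry replicate number 1 and differed less from each other than from the fourth (chi-square per gene 1.51 to 1.54, against 3.42 to 3.59). They were summed, leaving 2 vehicle libraries, although the labels list 4 vehicle replicates. The fit with every column as a separate sample is among the alternatives. The labels call the samples biological replicates without saying whether the cultures were separate, so p-values measure the spread between these samples.

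Estimated counts were tested with edgeR 4.0.16 (R 4.3.3, quasi-likelihood, TMM factors, filterByExpr, 15555 genes, all 5 groups in 1 model). RPKM values were tested with limma 3.58.1 (variance trend) on log2(RPKM + 0.1), for 20369 genes above 0 in at least 3 of 12 libraries, with 4 groups in 1 model. The standard error of an edgeR fold change was derived from its F statistic. The alternatives were DESeq2 1.42.0, other scalings, filters, pseudocounts and vehicle columns, a replicate block and each library left out. A further one took the prefix of the ligand column names as a term and was chosen after seeing the data. The prefix is read as a sequencing set, which the labels do not state. Both tests were tried on simulated data with known changes before use. Same-numbered ligand libraries did not deviate together (r from -0.103 to 0.0633), nor did most siRNA libraries (r from -0.342 to 0.28). In siControl and siGATA2 cells under enzalutamide all 3 pairs had r above 0.1, and the block changed no call between them.

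The members and lists were chosen with earlier results of these data known. All 10 genes were named in every comparison, and from each list at most the 3 largest rises and falls among called genes with a mean of at least 1 RPKM or an average log2 CPM of at least 1. FTH1 in siGATA2 cells, SLC3A2 on silencing under vehicle, and AKR1C1, AKR1C2 and AKR1C3 fall outside this rule and were named after their values were seen. Promoter windows came from RefSeq (GRCh38.p14), a different build from the authors' alignment, and were used for sequence only.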

Additional observations from a re-analysis of the deposited data

Results flagged for a closer look

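Differences between 2 responses, tested as such, were called for 15 values of the 10 genes. Between 24 h and 4 h of 10 µM enzalutamide, the log2 difference was 0.84 for HMOX1, 0.45 for OSGIN1, 0.42 for NQO1, 0.16 for GCLC and 0.15 for SRXN1, higher at 24 h, and -0.20 for GSR. In that contrast time coincides with the column prefix, and the fit with the prefix as a term kept HMOX1, NQO1 and GSR. It also has no vehicle of a stated time, so exposure and hours in culture cannot be told apart. Between siGATA2 and siControl cells, the log2 response to 25 µM enzalutamide differed by -1.60 for HMOX1, -0.94 for OSGIN1, -0.59 for SRXN1, -0.48 for GCLM, -0.34 for TXNRD1, -0.25 for GCLC, -0.25 for NQO1, -0.24 for GPX4 and 0.10 for GSR, tested with limma's interaction term. No group holds more than 3 libraries, so single libraries were not tested for standing apart.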

How the results depend on the processing

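Of 2000 values of the 10 genes recomputed under alternatives, 1846 kept their direction and side of the threshold, 73 lost the call, 17 gained one, 64 changed sign without a call in either fit and none that was called changed sign. Of 200 counts of called genes, 179 were within 1.5 times the reported one. For DHT at 4 h, 1 gene, GSR, was called with every vehicle column as a separate sample (adjusted p = 0.0145) and with only the groups compared (adjusted p = 0.0491), and 0 to 1 with single libraries left out. For enzalutamide 24 h against 4 h, 3 genes were called with the column prefix as a term. Leaving out single libraries gave 0 to 2 genes for enzalutamide at 4 h, where NFE2L2 and GCLM were called without enzalutamide 4 h replicate 1 (adjusted p = 0.0231 and 0.0331), and 3 to 5 for DHT at 24 h, with 3 without vehicle replicate 1. For enzalutamide in siGATA2 cells, 0 genes were called with no filter, with no variance trend and with the replicate block, and 0 to 1 with single libraries left out. The replicate block also ended the interaction call of GSR and the call of GCLC between 24 h and 4 h of enzalutamide (adjusted p = 0.0606), and no other call of these genes. The cause of these changes was not tested. Another scaling moved the median of all genes by 0.0737 or less. With 2 or 3 libraries per group, small changes near the threshold cannot be placed on either side of it.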
